A study of Homo sapiens with 12 samples.

Results

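Replication-dependent histone genes encode the core histones H2A, H2B, H3 and H4 and the linker histone H1, which package newly made DNA. They lie in clusters of near-identical copies, are transcribed mainly in S phase, and are the main human genes whose mRNA ends in a conserved stem loop instead of a poly(A) tail. The stem loop is bound by SLBP, the 3′ end is cut with the help of the U7 small nuclear RNP, and the mRNA is degraded when DNA synthesis stops. Members were taken from a gene-level array table by symbol: every transcript cluster (the array's gene-level unit) with exactly 1 gene symbol that began with HIST1H to HIST4H or with H1- followed by 1 to 6, H2AC, H2BC, H3C or H4C. This gave 35 of 67528 transcript clusters, standing for 34 of 22411 genes.

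The knockdown cells were HEK293T, a human embryonic kidney line carrying SV40 large T antigen, with a stably integrated short hairpin against PPIL3, a cyclophilin (peptidyl-prolyl isomerase) found in spliceosomes. The control, SCR, was the same line with a scrambled hairpin. Cells of both groups had been transduced with lentivirus, selected with puromycin and grown to near confluence, and each group is represented by 3 arrays (Affymetrix Human Transcriptome Array 2.0). The labels do not tie the replicates to separate cultures or transductions. The p-values therefore cover the spread among these arrays alone, and the effect of a hairpin cannot be told apart from that of its cell line. First-strand synthesis was primed with random oligomers as well as poly(T), so mRNA without a poly(A) tail was within reach of the assay.

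Values are RMA signals on the log2 scale, and a difference is knockdown minus SCR. PPIL3 fell by 0.51 (SE 0.030; limma adjusted p = 0.0050), with 7.30, 7.26 and 7.28 in knockdown and 7.75, 7.81 and 7.81 in SCR, a linear signal change of -29.8%. Its limma adjusted p was 0.053 without SCR array 2 and 0.080 without SCR array 3. Of 19912 genes tested, 137 were called at an adjusted p under 0.05 (0.688%), 111 of them higher in knockdown (0.557% of genes), and leaving out single arrays brought the count to between 1 (without SCR array 3) and 68 (without knockdown array 1). Of the markers of the HEK293 line, 8 of 9 were tested and 7 of those lay above the median gene signal, against 0 of 3 tested immune and blood markers, 0 of 3 hepatocyte markers and 1 of 3 fibroblast markers. The arrays were uneven in how closely they followed the group means: limma's array weights were 0.370, 0.225 and 4.84 for knockdown arrays 1 to 3 and 0.416, 3.56 and 1.68 for SCR arrays 1 to 3, so knockdown array 2 had the lowest. In bulk RNA, fewer cells in S phase and less histone mRNA per cell cannot be told apart.

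Of the 34 genes, 6 encode H1, 9 H2A, 15 H2B and 2 H4 (H4C3 and H4C7), and 2 are transcribed pseudogenes. The class H3 had 0 members, because its genes share clusters that carry several symbols, or, for H3-4, have a symbol outside the rule in the gene-level table. On chromosome 6 lay 27 genes and on chromosome 1 the other 7. A mean signal of at least 5 was required for testing, which 28 genes met: 4 H1, 7 H2A, 14 H2B, 1 H4 and 2 pseudogenes. The genes below it were H1-3, H1-5, H2AC1, H2AC14, H2BC1 and H4C7, with differences between -0.02 and 0.19. A second cluster of H2BC11, not used as the dimmer of its pair, differed by 0.07. A low gene-level mean did not mean that every exon probe set, the array's unit within a gene, was dim. H2AC14 had a gene-level mean of 3.56 and an exon probe set at 12.12. H1-3 had 4.98, with exon probe sets at 10.02 and 10.78. Among tested genes, H2AC6 had 6.01 and an exon probe set at 12.50, and H2BC18 had 6.46 and one at 13.17. Paralogs in these clusters are nearly identical in sequence, so the signal of 1 histone cluster may include transcripts of others, and all single-gene values below carry that uncertainty.

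Promoters of a few members are shown first, because many histone promoters hold the same short motifs, which the choice of members did not use. The 150 bases before the annotated start are given for H2BC3 (chr6:26043714-26043863), H2BC11 (chr6:27132796-27132945) and H1-1 (chr6:26017788-26017937), the coding members with the largest differences, and for H2BC12 (chr6:27146859-27147008), the H2B member with the lowest. All are on the minus strand of GRCh38.p14, from RefSeq, written 5′ to 3′ along the gene, with capitals marking the octamer ATTTGCAT, the TATA box TATAAA and the CCAAT box, the last of which reads ATTGG where it lies on the other strand.
H2BC3: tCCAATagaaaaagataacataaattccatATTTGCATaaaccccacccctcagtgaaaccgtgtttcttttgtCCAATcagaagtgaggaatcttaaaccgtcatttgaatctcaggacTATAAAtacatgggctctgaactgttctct
H2BC11: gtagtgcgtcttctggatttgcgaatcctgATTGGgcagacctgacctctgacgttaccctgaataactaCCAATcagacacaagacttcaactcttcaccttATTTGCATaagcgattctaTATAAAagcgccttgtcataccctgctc
H1-1: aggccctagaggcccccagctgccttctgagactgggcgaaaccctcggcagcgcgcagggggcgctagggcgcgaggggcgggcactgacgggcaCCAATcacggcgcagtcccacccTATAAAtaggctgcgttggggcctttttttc
H2BC12: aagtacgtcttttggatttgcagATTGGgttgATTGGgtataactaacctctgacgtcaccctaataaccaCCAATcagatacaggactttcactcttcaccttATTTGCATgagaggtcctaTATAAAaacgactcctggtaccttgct

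H2BC3, H2BC11 and H2BC12 each held 1 octamer upstream of 1 TATA box in these stretches, and H1-1 held a TATA box and a CCAAT box without an octamer. RefSeq promoters matched 30 of the 34 genes. H2AC12, H2AC2P, H2BC20P and H4C3 are named only. Over the 250 bases before the start, searched on both strands, the octamer was found in 17 of 30 members (56.7%), against 1.66% of all 27305 promoters. TATAAA was found in 20 (66.7%, against 11.1% of all promoters) and CCAAT in 29 (96.7%, against 33.0%). Adjacent motifs may share end letters. By class, the octamer was in 11 of 15 H2B, 6 of 8 H2A and 0 of 6 H1 promoters. Among the tested H2B genes, the 10 with the octamer had a median difference of 0.15, with 9 above 0, and the 4 without it a median of 0.08, with 2 above 0. Both the gene with the largest difference and the one with the lowest, H2BC3 and H2BC12, carried it.

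None of the 28 tested histone genes passed the test: 0 were called by limma at an adjusted p under 0.05, against 0.688% of all genes. An unadjusted p under 0.05 was reached by 5 (17.9%), close to the 15.4% of all tested genes. These were H4C3, H2BC11, H1-1, H2BC21 and H2BC3, all with a difference above 0. This fit did not pair the arrays. When limma paired them by replicate number, 11 of the 28 had an unadjusted p under 0.05, against 17.8% of all genes, and 0 were called. The median difference was 0.10 over the members and -0.0045 over all genes, and 19 of 28 members (67.9%) lay above 0, against 46.7% of genes. Differences ran between -0.10 for H2BC12 and 0.70 for H2BC3. All 3 knockdown values lay above all 3 SCR values in 7 members (25% against 11% of genes) and below them in 1, H2AC13, against 9.33% of genes. With array weights limma called 9 of the 28 members, 5 higher and 4 lower in knockdown. That setting called a like share of all genes, 5967 of 19912.

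**Figure D1:**
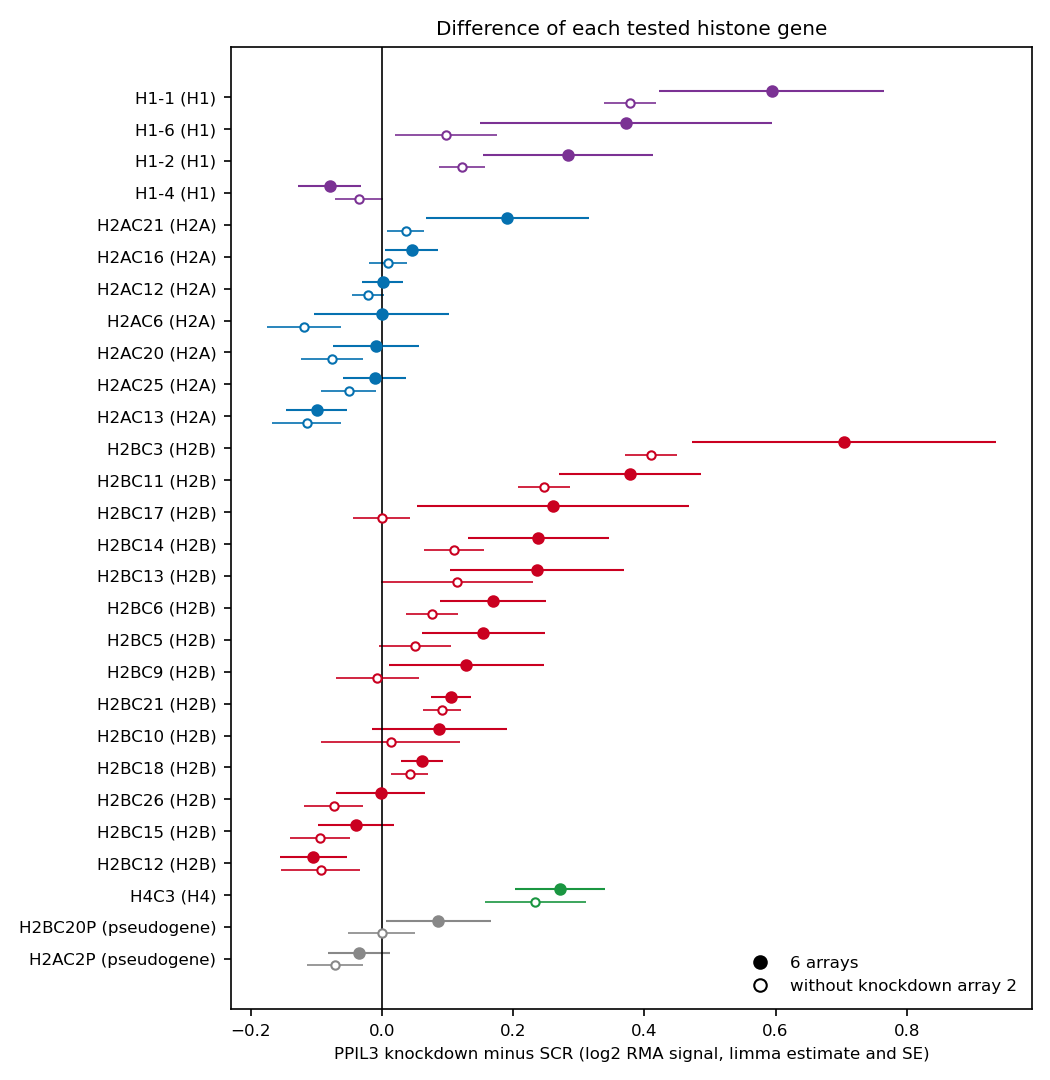
Difference between PPIL3 knockdown and SCR (log2 RMA signal, horizontal axis) for the 28 tested histone genes, grouped by class, with filled points for 6 arrays and open points without knockdown array 2; bars are limma SEs. Filled points run between -0.10 (H2BC12) and 0.70 (H2BC3), and most H1 and H2B points lie nearer 0 without knockdown array 2.

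The signal was carried unevenly by the knockdown arrays. Knockdown array 2 was the highest of all 6 arrays in 24 of 28 members (85.7%), against 23.5% of all genes. Knockdown arrays 1 and 3 were the highest in 0 members each, and SCR arrays 1 and 3 in 2 each. The mean deviation of the members from their SCR mean was 0.05, 0.34 and 0.04 on knockdown arrays 1, 2 and 3, and -0.01, 0.01 and 0.004 on SCR arrays 1, 2 and 3. Medians were -0.0076, 0.25 and 0.02 on the knockdown arrays. The 4 members with another highest array were H1-4, H2AC13, H2BC12 and H2AC2P.

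**Figure D2:**
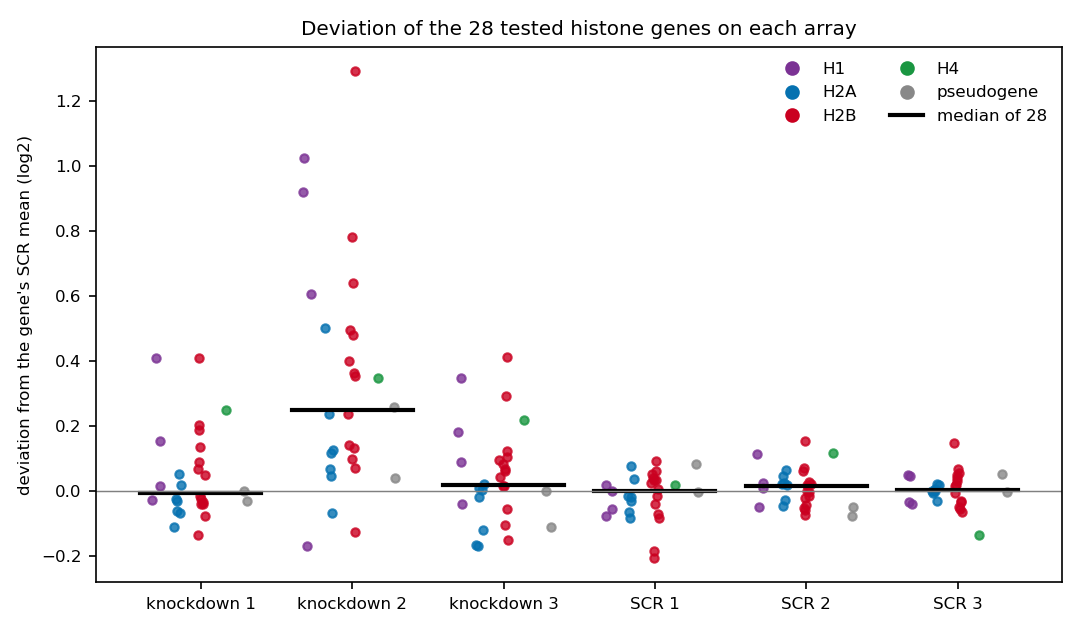
Deviation of each of the 28 tested histone genes from its own SCR mean (log2, vertical axis) on the 3 PPIL3 knockdown and 3 SCR arrays, coloured by class, with black lines at the median. The median is 0.25 on knockdown array 2, against -0.0076 and 0.02 on knockdown arrays 1 and 3.

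The spread between replicates followed the same array. The SD over knockdown arrays had a median of 0.145 over the members, against 0.058 over SCR arrays, and was the larger of the pair in 23 of 28 (82.1%, against 67.2% of all genes). Without knockdown array 2 the members' median difference was 0.01, with 15 of 28 above 0. The part of that array's low weight in these values was not tested.

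Linker histones had the highest median difference of the classes with over 1 tested gene: it was 0.33 over the 4 tested H1 genes, against 0.14 in H2B, -0.00035 in H2A and 0.03 in the pseudogenes. Replication-dependent H1 genes encode the linker histones that sit on the DNA between nucleosomes. H1-1 had signals of 8.08, 8.69 and 8.01 in knockdown and 7.67, 7.62 and 7.72 in SCR. Every knockdown array lay above every SCR array, and knockdown array 2 stood highest by a wide margin. The difference was 0.59 (SE 0.171; limma adjusted p = 0.182). Leaving out knockdown array 2 gave 0.38 (limma adjusted p = 0.051). Over all alternatives the limma adjusted p of H1-1 ran between 0.013, with array weights, and 0.474.

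H1-6, the linker histone known from male germ cells, had signals of 7.04, 7.95 and 7.21 in knockdown and 6.95, 7.14 and 6.99 in SCR. The groups overlapped, and knockdown array 2 alone stood apart, with a difference of 0.37 (SE 0.222; limma adjusted p = 0.495). For H1-2, a somatic H1 whose mRNA is also known in a polyadenylated form, the signals were 9.84, 10.29 and 9.78 in knockdown and 9.70, 9.71 and 9.65 in SCR. Here the groups did not overlap, though arrays 1 and 3 of the knockdown lay close to SCR. Its difference was 0.28 (SE 0.130; limma adjusted p = 0.365).

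H1-4, another somatic H1, went without a high value on knockdown array 2. Its signals were 12.40, 12.26 and 12.39 in knockdown and 12.37, 12.44 and 12.48 in SCR, and knockdown array 2 was the lowest of the 6. The difference was -0.08 (SE 0.049; limma adjusted p = 0.503). The class mean deviation was 0.14, 0.60 and 0.14 on knockdown arrays 1 to 3, so the H1 genes other than H1-4 followed the pattern of the members at large.

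**Figure D3:**
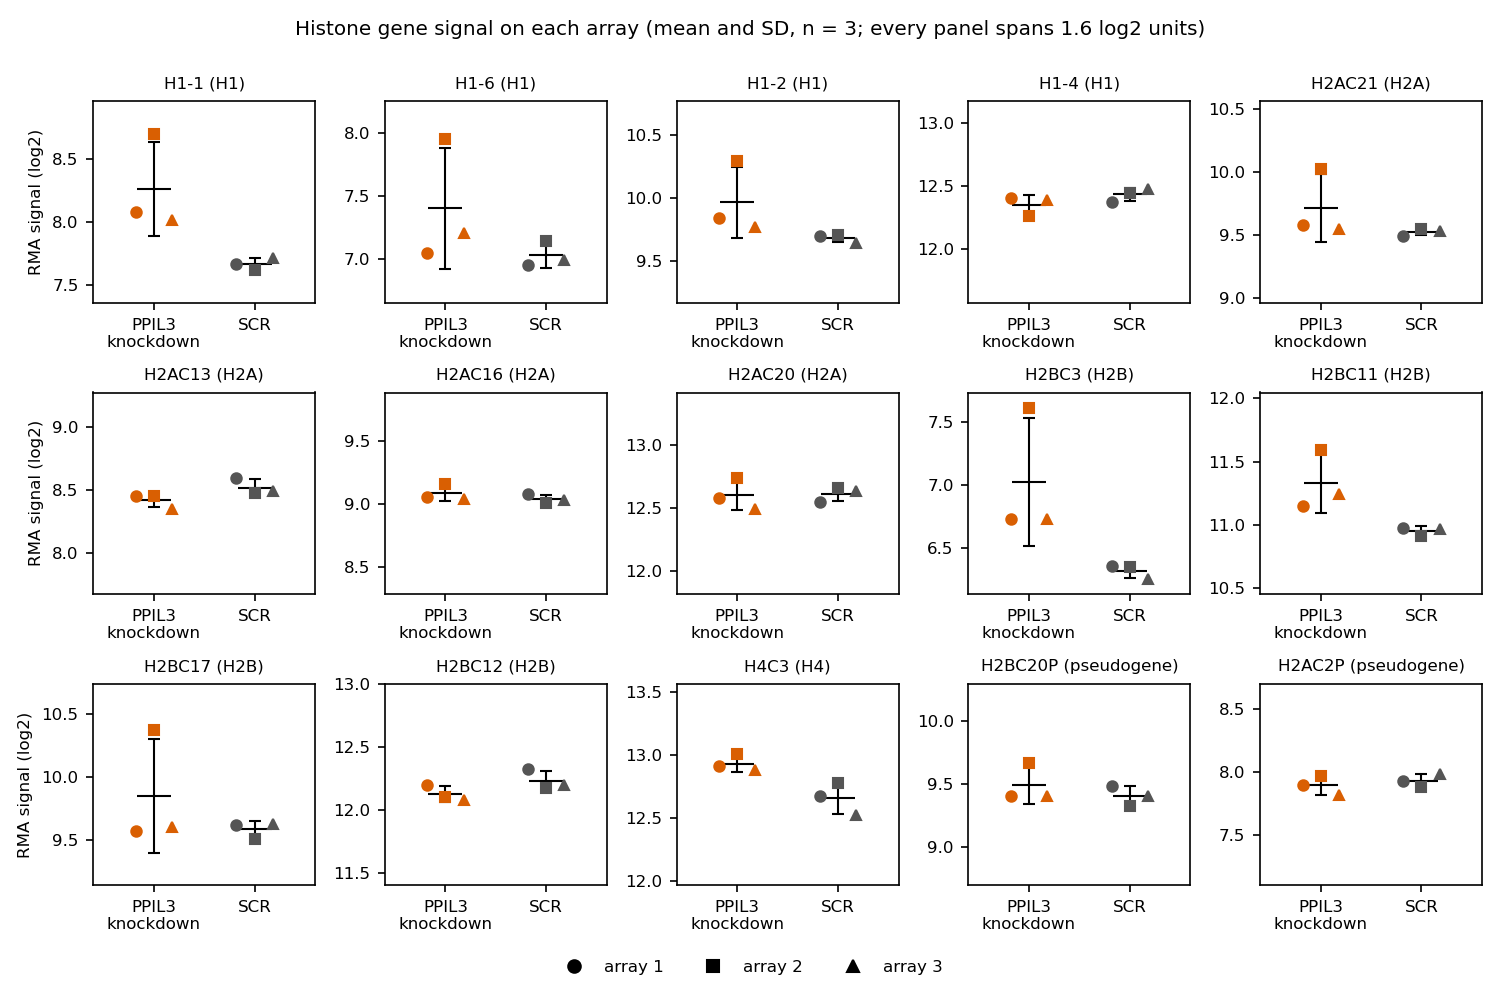
RMA signal (log2, vertical axis, 1.6 units in every panel) of 15 histone genes on the 3 PPIL3 knockdown arrays (left) and the 3 SCR arrays (right); symbols give the array number, and bars the group mean and SD. Knockdown array 2 is the top square in most panels, and H4C3 has the knockdown arrays within 12.88 to 13.00, above SCR.

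The H2A class lay closest to 0. Its 7 tested genes had a median difference of -0.00035, 3 above 0 and 4 below, with class mean deviations of -0.03, 0.15 and -0.06 on knockdown arrays 1 to 3. H2AC21 had 9.58, 10.03 and 9.55 in knockdown and 9.50, 9.55 and 9.53 in SCR, which overlap apart from knockdown array 2. It differed by 0.19 (SE 0.124; limma adjusted p = 0.533). Of its 2 tested exon probe sets, 1 had 9.73, 10.50 and 9.61 in knockdown and 9.27, 9.29 and 9.16 in SCR. That one differed by 0.71 (SE 0.219; limma adjusted p = 0.413) without overlap, and the other by -0.01 with overlap. H2AC13 was the 1 member with every knockdown value below every SCR value, at 8.45, 8.45 and 8.35 in knockdown and 8.59, 8.47 and 8.49 in SCR. The margin between the groups was narrow, and its difference of -0.10 (SE 0.046) had a limma adjusted p of 0.373.

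H2AC16, whose product is a main H2A protein made from several gene copies, had 9.06, 9.16 and 9.04 in knockdown and 9.08, 9.01 and 9.03 in SCR. The groups overlapped, at a difference of 0.05 (SE 0.040; limma adjusted p = 0.667). H2AC20, which shares a promoter region with H2BC21, had 12.58, 12.74 and 12.49 in knockdown and 12.54, 12.66 and 12.63 in SCR. Its arrays were interleaved and the difference was -0.0089 (SE 0.066; limma adjusted p = 0.968). The other 3 tested H2A genes lay between -0.01 (H2AC25) and 0.0011 (H2AC12).

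H2B genes, the largest class, had a median difference of 0.14, with 11 of 14 above 0 and class mean deviations of 0.06, 0.38 and 0.07 on knockdown arrays 1 to 3. H2BC3 had the largest difference of any member. Its signals were 6.73, 7.61 and 6.73 in knockdown and 6.36, 6.35 and 6.25 in SCR. All knockdown arrays lay above SCR, array 2 by the most. The difference was 0.70 (SE 0.231), a linear fold of 1.63, with a limma adjusted p of 0.226. Without knockdown array 2 the difference was 0.41 and the limma adjusted p 0.049, so H2BC3 was called there, as the only member. Over all alternatives its limma adjusted p ran between 0.019, with array weights, and 0.506.

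H2BC11 had 11.15, 11.59 and 11.24 in knockdown and 10.97, 10.91 and 10.97 in SCR, again without overlap and with array 2 highest. These values equal those of 1 of its exon probe sets. Its brightest exon probe set, with a mean of 13.07, differed by 0.08 with overlapping groups. The gene-level difference was 0.38 (SE 0.108; limma adjusted p = 0.179). It was 0.25 without knockdown array 2 (limma adjusted p = 0.092) and 0.18 from means of exon probe sets (limma adjusted p = 0.181). Over all alternatives the limma adjusted p of H2BC11 ran between 0.0050, with array weights, and 0.475. In H2BC17 the gene-level pattern rested on 1 array: signals were 9.57, 10.37 and 9.60 in knockdown and 9.62, 9.51 and 9.62 in SCR. Knockdown arrays 1 and 3 lay among the SCR arrays. The difference of 0.26 (SE 0.207; limma adjusted p = 0.624) was -0.00047 without knockdown array 2. Its 2 tested exon probe sets were unlike. The first had 8.55, 9.74 and 8.54 in knockdown and 8.22, 7.91 and 7.83 in SCR. All its knockdown values lay above SCR, at a difference of 0.96 (SE 0.314; limma adjusted p = 0.435). The second differed by 0.10, with overlapping groups.

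H2BC12, also known to give polyadenylated mRNA, had 12.20, 12.11 and 12.08 in knockdown and 12.32, 12.17 and 12.20 in SCR. The groups overlapped, with SCR array 1 highest, and the difference was -0.10 (SE 0.051; limma adjusted p = 0.393). H2BC21 had 8.45, 8.49 and 8.45 in knockdown and 8.39, 8.36 and 8.32 in SCR. It is named here after its values were seen, as a gene whose small difference of 0.11 (SE 0.030; limma adjusted p = 0.185) came with knockdown arrays that lay close together and above SCR. The 10 H2B genes not among the 3 with the largest difference or H2BC12 lay between -0.04 (H2BC15) and 0.24 (H2BC14), 8 of them above 0.

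H4C3, the only H4 gene with a tested cluster of its own, encodes the same H4 protein as most other H4 genes. Its signals were 12.91, 13.00 and 12.88 in knockdown and 12.67, 12.77 and 12.52 in SCR. The groups did not overlap, and unlike in H1-1 and H2BC3 the knockdown arrays stood together, with an SD of 0.067 against 0.127 in SCR. The difference was 0.27 (SE 0.069) with a limma adjusted p of 0.143, the lowest of any member. It was 0.23 without knockdown array 2. Over all alternatives the limma adjusted p of H4C3 lay between 0.074, with array weights, and 0.365.

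Both pseudogenes overlapped between groups. H2BC20P had 9.40, 9.66 and 9.40 in knockdown and 9.48, 9.32 and 9.40 in SCR, a difference of 0.09 (SE 0.080; limma adjusted p = 0.684). H2AC2P had 7.89, 7.97 and 7.82 in knockdown and 7.93, 7.88 and 7.98 in SCR, a difference of -0.03 (SE 0.047; limma adjusted p = 0.792).

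Many H2A and H2B genes are transcribed in opposite directions from a common promoter region. Among the 30 members with a RefSeq promoter, 5 such head-to-head pairs were found. H2AC12, H2AC2P, H2BC20P and H4C3 had no such promoter, so any pair that includes one of these genes was missed. Both genes were tested in 3 of the 5 pairs, and in these 3 the H2B gene had the larger difference. H2BC13 differed by 0.24 and its partner H2AC13 by -0.10. For H2BC21 and H2AC20 the differences were 0.11 and -0.0089, and for H2BC26 and H2AC25 they were -0.0022 and -0.01, which lie within their standard errors of each other. The difference between partners was not tested.

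Probe sets divide the same 6 arrays into exons and exon junctions, and so give a second view of these values and no new replicates. Of 134 histone probe sets with 1 symbol, 116 covered exons and 18 junctions, and 91 reached a mean of 5. Limma called 0 of the 91, against 0.00429% of 745098 probe sets. An unadjusted p under 0.05 was reached by 17 (18.7%), and by 9.45% of all probe sets. Knockdown array 2 was the highest in 49 of 91. The same share was not counted over all probe sets, and at gene level it was 23.5% of all genes. Under older names 2 further genes entered here, H3-4 and the pseudogene H2BP1, with differences of 0.10 to 0.14 and 0.01 to 0.04.

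The probe set values that follow are those of tested probe sets. H1-1 had the one with the lowest adjusted p, an exon probe set at 12.58, 12.74 and 12.56 in knockdown and 12.22, 12.19 and 12.20 in SCR. The knockdown arrays stood together above SCR, at a difference of 0.42 (SE 0.085; limma adjusted p = 0.271), and the other tested H1-1 exon probe set differed by 0.44. The tested exon probe sets of H2BC3 differed by 0.54 and 0.82, and those of H4C3 by 0.26 and 0.30. In all 4 the knockdown arrays lay above SCR. The 9 tested probe sets of H2BC11 ran between -0.14 and 0.55, while all 4 of H2BC12 lay below 0, between -0.21 and -0.08, and so did all 4 of H1-4, between -0.10 and -0.02.

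Within single genes, probe sets differed widely. H2BC5, whose gene-level difference was 0.15, had an exon probe set at 9.00, 10.28 and 9.32 in knockdown and 8.42, 8.37 and 8.36 in SCR. That difference of 1.15 (SE 0.292; limma adjusted p = 0.348) was the largest of the tested histone probe sets, and its other 3 tested probe sets lay between -0.10 and 0.05. In H2AC6 an exon probe set had the lowest difference, -0.35 (SE 0.109; limma adjusted p = 0.412), at 5.53, 5.78 and 5.48 in knockdown and 5.95, 5.85 and 6.05 in SCR, with another probe set of that gene at 0.12. A junction probe set of H2BC15 differed by 0.42 (SE 0.104; limma adjusted p = 0.341) beside exon probe sets between -0.09 and 0.09. These genes are named after their values were seen, for their spread.

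**Figure D4:**
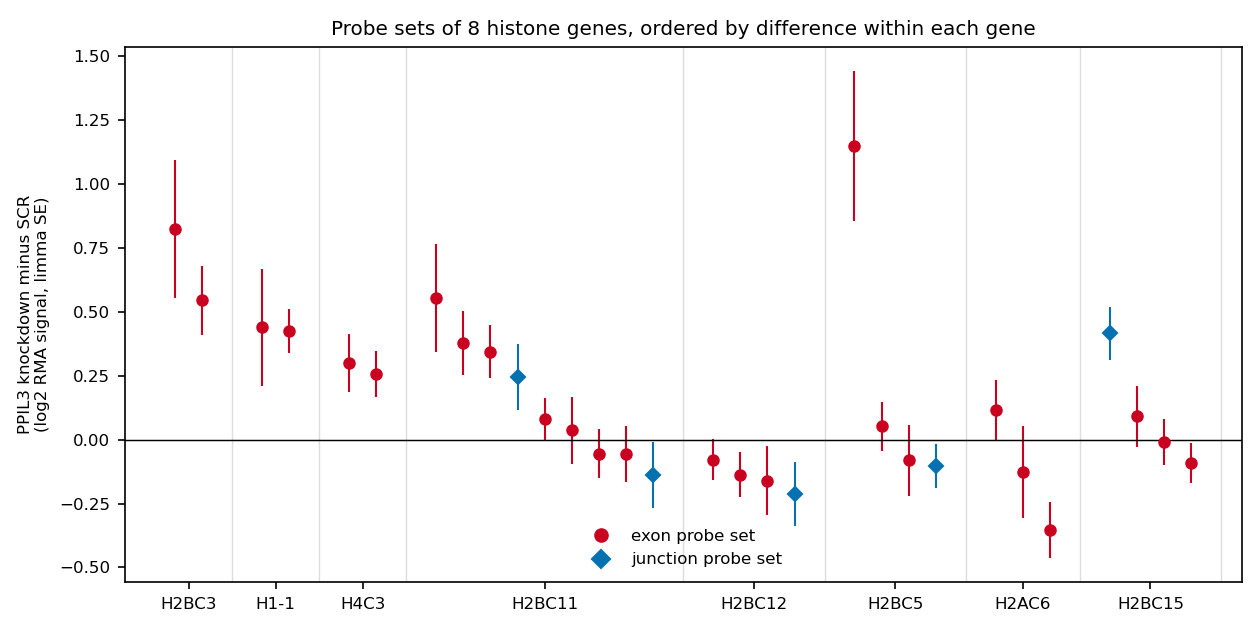
Difference between PPIL3 knockdown and SCR (log2 RMA signal, vertical axis) of every tested probe set of 8 histone genes, exon probe sets as circles and junction probe sets as diamonds, with limma SEs. Tested probe sets of H2BC3, H1-1 and H4C3 all lie above 0 and those of H2BC12 all below, while H2BC5 holds the highest, at 1.15, beside 3 between -0.10 and 0.05.

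Histone mRNA can carry a poly(A) tail in some genes, and 5 tested members are known for it, H2BC5, H2BC12, H2BC21, H2AC6 and H1-2. They had a median difference of 0.11, with 0 called, against 0.688% of all tested genes. Their mean deviation was 0.02, 0.24 and -0.0028 on knockdown arrays 1, 2 and 3, so array 2 stood highest in this subset too. Of the 4 genes listed as known from the male germ line, H2AC1 and H2BC1 were below the filter, and H3-4, which is outside the rule, differed by 0.09 (limma adjusted p = 0.623), beside 0.37 for H1-6.

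Genes that make, cut and destroy histone mRNA had 0 calls in every list, in either direction, against 0.688% of all tested genes. At that share, lists this short would hold few calls or none. Of the 3′ end processing factors, 16 of 21 were tested with a median difference of -0.0015. CSTF2T, a cleavage stimulation subunit, differed by -0.27 (limma adjusted p = 0.241) and NCBP1, a cap-binding protein, by 0.13 (limma adjusted p = 0.348). SLBP, named here for its role and after its values were seen, had 10.14, 10.24 and 10.23 in knockdown and 10.18, 10.18 and 10.18 in SCR, with knockdown array 1 below SCR and the other two above. In the decay list 12 of 13 were tested, with a median of 0.05. ATR, the replication stress kinase, differed by 0.25 (limma adjusted p = 0.146) and ERI1, the exonuclease that trims the stem loop, by 0.11 (limma adjusted p = 0.377). Knockdown array 2 was the highest in 9 of these 12, against 23.5% of all genes.

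Promoter factors were tested in 12 of 13, with a median of -0.04, led in size by CREBBP, a histone acetyltransferase, at -0.21 (limma adjusted p = 0.177) and CUX1, a homeodomain protein, at -0.10 (limma adjusted p = 0.233). Of the replication-independent variants, whose genes are expressed through the cell cycle, 8 of 12 were tested and 7 lay below 0, as did 53.2% of all genes, with a median of -0.07. H2AZ2, an H2A variant, differed by -0.20 (limma adjusted p = 0.140) and H2AX, the variant phosphorylated at DNA breaks, by -0.14 (limma adjusted p = 0.215). Their mean deviation was -0.09, -0.06 and -0.08 on knockdown arrays 1, 2 and 3. The variants thus did not share the high value of the members on knockdown array 2. Histone chaperones, 17 of 18 tested, had a median of 0.0095, with SUPT16H, a FACT subunit, at 0.10 (limma adjusted p = 0.282) and HAT1, which acetylates new H4, at 0.09 (limma adjusted p = 0.251).

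S phase and cyclin E-CDK2 genes are the usual companions of histone transcription. Of 21, 19 were tested, with a median of -0.06, 13 below 0 (53.2% of all tested genes lay below 0) and 9 at an unadjusted p under 0.05, which 15.4% of all genes reached. Of these 9, CCNA2, the S phase cyclin A, at 0.19 (limma adjusted p = 0.120) and MCM4, a helicase subunit, at 0.10 (limma adjusted p = 0.160) lay above SCR on every knockdown array and the other 7 had differences below 0. Both are named after their values were seen. CDC25A, the phosphatase that activates CDK2, had 9.17, 9.43 and 9.25 in knockdown and 9.62, 9.63 and 9.62 in SCR. The groups did not overlap, at a difference of -0.34 (SE 0.064; limma adjusted p = 0.083). MCM6, a subunit of the replicative helicase, differed by -0.26 (limma adjusted p = 0.138). The list's mean deviation was -0.10, -0.02 and -0.06 on knockdown arrays 1, 2 and 3. Knockdown array 2 was the highest of 6 in 4 of the 19 genes, against 23.5% of all genes.

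**Figure D5:**
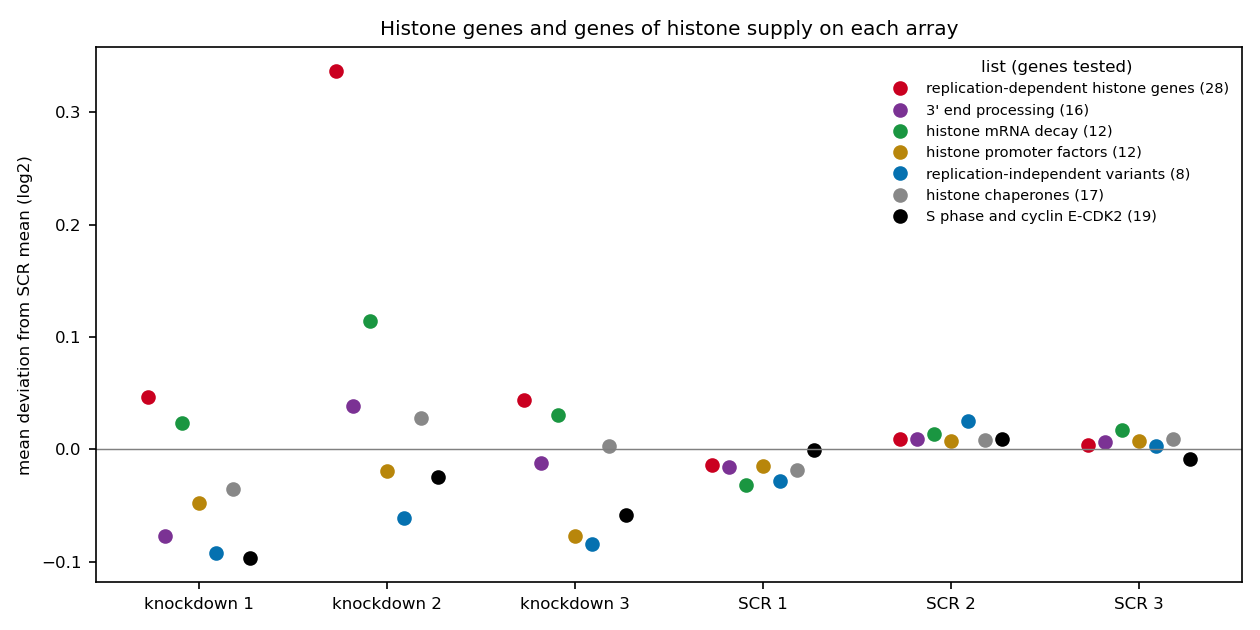
Mean deviation from the SCR mean (log2, vertical axis) of the 28 tested histone genes and of 6 pathway lists (3′ end processing, decay, promoter factors, variants, chaperones, S phase) on the 3 PPIL3 knockdown and 3 SCR arrays. On knockdown array 2 the 28 histone genes stand at 0.34 and the 6 pathway lists between -0.06 and 0.11.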

How the data were processed

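Total RNA from HEK293T cells was measured on 6 arrays, 3 PPIL3 knockdown and 3 SCR. The submitters' processing notes name Affymetrix Expression Console and RMA, and the values deposited by the authors are log2 signals in both tables, one per transcript cluster and one per probe set. RMA subtracts background, equalizes the distributions of the arrays and combines probes, so a shift of most transcripts together would be removed. The sources used here give neither the versions of these tools nor the genome build. The 12 samples are 6 arrays summarized in 2 ways: 2995 rows occur in both tables, with the same value in all 2995 for samples of the same name and in at most 15 for other samples. The hairpin has different numbers in titles and source names. Array medians lay between 6.57 and 6.62 at gene level. The number of arrays limits the precision.

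Of 67528 clusters, 23781 had 1 symbol, 1543 several and 42204 were unnamed here. Symbols were updated with RefSeq gene names (306 changed), and the brightest of several clusters stood for a gene (528 genes). Genes with a mean of at least 5 were tested with limma 3.58.1 in R 4.3.3 (lmFit, eBayes, two-sided, Benjamini-Hochberg over all of them), and probe sets likewise, after a check on simulated data. Members and lists were chosen with earlier results of these data known. Named were PPIL3, every member called, in each class the 3 tested members with the largest absolute difference and the brightest, and in each list every called gene or else the 2 with the largest absolute difference. In the list of HEK293 markers NEFM was called, at 0.70.

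Replicate numbers are shared between groups. Deviations of same-numbered arrays from their group means correlated at 0.344, 0.157 and 0.141, all 3 over 0.1. An alternative fit, the replicate block, therefore paired the arrays by number. The main fit, which gave the SEs and p-values printed without another setting, did not pair them. Between arrays of different numbers the correlations ran between -0.354 and 0.215, the highest for knockdown array 2 with SCR array 3, which is above 2 of the same-numbered values. The pairing comes from the values, since the labels do not say what a number marks. Alternatives were the replicate block, other filters, normalization again, centring, an intensity trend, no moderation, array weights, every cluster, means of exon probe sets and each array left out. Promoters came from a RefSeq table (GRCh38.p14).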

Additional observations from a re-analysis of the deposited data

How the results depend on the processing

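The count of histone genes called was 0 under every alternative except limma's array weights, with 9, and without single arrays, with 0 to 1 (1, H2BC3, without knockdown array 2). Array weights called 5967 of 19912 genes in all and gave knockdown array 2 the lowest weight. Over all genes the count of 137 was 32 with the replicate block, 4 without moderation, 217 from means of exon probe sets and 1 to 68 without single arrays. It was 68, 59 and 12 without knockdown array 1, 2 or 3, and 9, 5 and 1 without SCR array 1, 2 or 3. With the replicate block 0 members were called and 11 had an unadjusted p under 0.05, against 5 without it (17.8% of all genes with the block and 15.4% without), and the block changed no call of a member or of PPIL3. An intensity trend called 1 histone probe set, of H1-1 (limma adjusted p = 0.049). That setting called 511 of all 745098 probe sets, against 32 in the main fit. PPIL3 was -0.51 without moderation (adjusted p = 0.071), and between -0.53 and -0.50 without single arrays, with an adjusted p of 0.053 without SCR array 2 and 0.080 without SCR array 3.

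For the 15 named members, 241 of 255 comparisons kept their direction and side of the threshold, 7 passed it and 7 changed sign. The replicate block, other filters, an intensity trend, no moderation and the fits with more clusters left each difference as it was. In those comparisons only the side of the threshold could change. Without single arrays, H2AC20 lay between -0.076 (without knockdown array 2) and 0.047, H2BC17 between -0.00047 (without knockdown array 2) and 0.40, H2BC20P between -0.00019 (without knockdown array 2) and 0.13, and H2AC2P between -0.072 and 0.0033 (without knockdown array 3). The cause was not tested.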

Other observations

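Apart from H3-4, the genes for H3, and most genes for H4, were seen through clusters that carry several symbols. Such clusters with at least 1 histone symbol numbered 38: 12 H3, 13 H4, 7 H2A, 3 H2B and 3 mixed. A mixed cluster held several classes or a symbol outside the rule. Of the 38, 37 reached a mean of 5. They were tested together with all other named clusters, in a fit chosen after seeing the data. Of the 37, 0 were called, against 126 of all 21157 clusters in that fit. An unadjusted p under 0.05 was reached by 14 of the 37 (11 with differences above 0 and 3 below), against 3192 of the 21157. Knockdown array 2 was the highest array in 29 of the 37, against 23.5% of all tested genes, and their mean deviation from SCR was 0.05, 0.41 and 0.11 on knockdown arrays 1, 2 and 3. The 11 tested H3 clusters had a median difference of 0.19 and the 13 H4 clusters one of 0.22, with a highest value of 0.85, and the 7 H2A clusters one of -0.04. Each such value belongs to several genes at once.

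The lowest adjusted p among them, 0.094 by limma, belonged to an H2A cluster shared by 2 gene symbols, with 12.71, 12.57 and 12.63 in knockdown and 12.85, 12.83 and 12.89 in SCR. All knockdown values lay below SCR there, knockdown array 2 was the lowest, and the difference was -0.22 (SE 0.042). An H4 cluster, shared by 14 symbols, held the difference of 0.85, with 11.31, 12.36 and 11.60 in knockdown and 11.03, 10.97 and 10.74 in SCR (SE 0.255; limma adjusted p = 0.202). Its knockdown values all lay above SCR, array 2 by the most.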
